A study of Mus musculus with 22 samples.

Results

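Among the genes that differ between Isl1 knockout and control pancreatic endocrine cells, 7 were examined in every library: Wfdc10, Moxd1, Steap4, Cidea, Dcdc2a, Evpl and Dmd. They were selected on their counts, which were far higher in P9 Isl1CKO cells than in P9 controls, so their P9 values are given below as a description without a test. All 7 are present in both count tables, which hold 27124 genes at E14.5 and 27504 at P9, with 24296 shared. The question asked of them was whether they are embryonic genes kept on after birth or genes switched on anew. The E14.5 libraries, whose counts were not the basis of the choice, give the levels to compare.

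Each library was RNA-seq of 100 tdTomato+ cells sorted from the pancreas. Isl1CKO mice carried floxed Isl1 on both alleles, Neurod1-Cre and the Ai14 tdTomato reporter, and were profiled at E14.5 (5 libraries) and P9 (6 libraries). Controls, whose genotype is labelled WT, were profiled at E14.5 (6 libraries) and P9 (5 libraries). The paper describes the E14.5 controls as heterozygous for floxed Isl1 with the same Cre and reporter, so they too carried a deletion, of a single allele. For the P9 controls it names the Ai14 reporter but does not state the Isl1 genotype. Mice were littermates of both sexes on a C57BL/6 background. Cre is driven by Neurod1, so tdTomato marks all cells with a history of Neurod1 expression and not a single hormone lineage. The paper calls the libraries biological replicates, but neither it nor the labels says whether each came from its own animal, so p-values measure the spread between these libraries, which may be technical in part.

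ISL1 is a LIM-homeodomain transcription factor present in all developing islet endocrine cells, where it is required for normal islet cell development. Maturing endocrine cells also shut down genes that serve other cell types or earlier stages. The 7 genes have no shared pathway. Wfdc10 encodes a small secreted protein with a whey acidic protein (WAP) fold, a family of protease inhibitors, and Moxd1 a copper-dependent monooxygenase related to dopamine beta-hydroxylase. Steap4 encodes a metalloreductase that reduces iron and copper, and Cidea a lipid droplet protein best known from brown fat. Dcdc2a encodes a doublecortin-domain protein of microtubules and cilia, Evpl the plakin envoplakin of stratified epithelia, and Dmd dystrophin, which links actin to the membrane in muscle and, as shorter isoforms, in other tissues.

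Promoter sequences are shown for 4 of the genes, because 3 of them were nearly absent from P9 controls and the other, Dmd, was not and had a different course with age. Windows from the RefSeq promoter table (GRCm38.p6) were examined for 5 of the 7 genes, and those of Cidea and Evpl were not examined. Each line gives the 250 bases before the start site, 5′ to 3′ on the plus strand, which is the strand of all 4 genes, with every TAAT, the core bound by many homeodomain proteins, and its reverse complement ATTA in capitals. The windows are chr2:164655796-164656045 for Wfdc10, chr10:24223267-24223516 for Moxd1, chr5:7960222-7960471 for Steap4 and chrX:82948620-82948869 for Dmd. The Steap4 window ends before the RefSeq start at 7960472, which lies 15 bases inside the GENCODE gene given below.
Wfdc10: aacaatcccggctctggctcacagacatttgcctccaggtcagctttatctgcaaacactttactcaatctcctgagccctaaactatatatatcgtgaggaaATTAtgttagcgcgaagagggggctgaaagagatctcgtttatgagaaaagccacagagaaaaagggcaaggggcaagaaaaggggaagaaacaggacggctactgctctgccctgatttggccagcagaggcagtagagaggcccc
Moxd1: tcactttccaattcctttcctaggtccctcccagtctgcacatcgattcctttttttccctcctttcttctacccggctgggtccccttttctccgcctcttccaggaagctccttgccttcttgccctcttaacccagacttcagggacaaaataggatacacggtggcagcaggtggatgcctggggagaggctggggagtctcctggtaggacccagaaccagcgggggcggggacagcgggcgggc
Steap4: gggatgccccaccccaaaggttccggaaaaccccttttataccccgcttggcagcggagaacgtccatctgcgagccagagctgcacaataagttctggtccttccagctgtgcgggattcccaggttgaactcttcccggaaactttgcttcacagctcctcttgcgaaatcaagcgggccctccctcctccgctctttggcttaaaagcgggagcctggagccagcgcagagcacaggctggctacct
Dmd: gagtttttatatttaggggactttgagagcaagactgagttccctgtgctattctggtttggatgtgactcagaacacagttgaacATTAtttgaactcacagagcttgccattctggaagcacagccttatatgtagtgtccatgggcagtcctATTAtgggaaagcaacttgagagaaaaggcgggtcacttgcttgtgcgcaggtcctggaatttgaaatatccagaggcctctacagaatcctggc

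The Wfdc10 window held 1 TAAT core and the Dmd window 2, while those of Moxd1 and Steap4 held none. A further Dmd window in the table, at chrX:85048045-85048294 before an internal start, held 0 TAAT, 0 TATAAA and 7 CG, and the counts do not show which start was used. On either strand, 54.9% of 32851 promoter windows of this length hold TAAT. The longer motif CTAATG, which contains TAAT, was searched on both strands as a LIM-homeodomain site and was in none of these windows, as against 6.36% of all windows. TATAAA, the TATA box sequence, was also searched on both strands and is in 12.4% of windows. The Steap4 window and the Dmd window shown each held 1 match, as the reverse complement TTTATA. Both matches lay near the end of the window far from the start site. CG dinucleotides numbered 6 for Wfdc10, 8 for Moxd1, 12 for Steap4 and 2 for Dmd, and the median window has 6. The 4 sequences thus shared none of the motifs searched. A match is a description of letters and not a binding site.

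Libraries held between 8477482 and 13580985 counts. The 8 hormone genes took 13.98% to 30.2% of the counts in P9 Isl1CKO libraries and 51.1% to 56.4% in P9 controls, so library scaling matters at this age. Isl1 itself, counted over the whole gene, averaged 10672 ± 1037 scaled counts in E14.5 Isl1CKO and 14924 ± 1368 in E14.5 control libraries (log2 fold change -0.48, adjusted p = 0.0063, edgeR quasi-likelihood test). At P9 it averaged 8037 ± 2455 in Isl1CKO and 3811 ± 515 in control libraries (log2 fold change 1.08, SE 0.21, adjusted p = 0.0081), so gene-level Isl1 counts went against the knockout label at P9. The counts do not separate the floxed part from the rest of the transcript, and this cannot check the deletion. Endocrine markers were present in all libraries, with 10 of 10 in the P9 table and a summed level of 34300 to 49500 CPM (the usual unit of counts divided by library size) in P9 Isl1CKO and 15500 to 17700 CPM in P9 control libraries. Chgb (259473 scaled counts in P9 Isl1CKO and 12060 in P9 control libraries) and Chga carried this sum, the list median log2 fold change was -0.07, and Scg2 was called lower (log2 fold change -2.40).

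Of the 7 genes, 4 were close to silent in P9 control cells. Wfdc10 had between 21 and 334 counts in the 6 P9 Isl1CKO libraries (median 262.5) and 0 in all 5 P9 controls. The Isl1CKO libraries fell apart into a low pair, replicates 1 and 2 with 27 and 21 counts, and a high set, replicates 3 to 6 with 275, 250, 322 and 334. The same low pair had hormone shares of 26.1% and 30.2%, the high set 25.1%, 21.8%, 14.9% and 13.98%, and the part of this in the split was not tested. CPM were scaled over all 22 libraries with the trimmed mean of M values (TMM). On this scale Wfdc10 averaged 21.5 ± 14.7 CPM in P9 Isl1CKO libraries (SD, n = 6). With 3 counts over the control group taken as the floor, this is at least 251-fold higher than in P9 controls. The bound from this floor was 410-fold with total counts and 232-fold with total counts without the 8 hormone genes. Counting error alone enters that floor, as it does the interval for Cidea below.

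Moxd1 had between 108 and 890 counts in P9 Isl1CKO libraries (median 228.5), and 3, 3, 1, 2 and 4 in P9 controls. Every Isl1CKO library stood above every control. Its mean level was 32.1 ± 23.2 CPM in P9 Isl1CKO and 0.370 ± 0.150 CPM in P9 control libraries, a ratio of 86.7. The spread rested in part on Isl1CKO replicate 6, which at 76.6 CPM was more than any other Isl1CKO library. Without that library the fitted log2 fold change was 5.91, against 6.37 with all libraries.

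Steap4 had between 47 and 351 counts in P9 Isl1CKO libraries (median 207.5), and 2, 1, 1, 1 and 1 in P9 controls. It averaged 21.7 ± 12.7 CPM in P9 Isl1CKO and 0.171 ± 0.061 CPM in P9 control libraries, a ratio of 126.5. The lowest Isl1CKO library, replicate 3 with 47 counts, was not among the low pair for Wfdc10. The ranking of the Isl1CKO libraries therefore differed from gene to gene.

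Cidea had between 105 and 887 counts in P9 Isl1CKO libraries (median 173.5), and 1, 0, 0, 0 and 0 in P9 controls. It averaged 29.4 ± 29.7 CPM in P9 Isl1CKO libraries against 0.0279 ± 0.0625 CPM in P9 controls. The ratio of these means was 1054, but since it rests on a single control count its 95% counting interval ran from 189 to 41642. Isl1CKO replicate 5, at 89.0 CPM, lay above all other Isl1CKO libraries, which ranged from 11.0 to 25.4 CPM. Without it the ratio was 627.

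The other 3 genes had clear counts in P9 controls and were raised from a higher base. Dcdc2a had between 651 and 2468 counts in P9 Isl1CKO libraries (median 1419), and 133, 132, 243, 69 and 143 in P9 controls. It averaged 153 ± 54.0 CPM in P9 Isl1CKO and 20.3 ± 8.17 CPM in P9 control libraries, 7.52-fold apart with no overlap. It was the most strongly counted of the 7 genes in P9 Isl1CKO cells.

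Dmd had between 594 and 1205 counts in P9 Isl1CKO libraries (median 727), and 103, 20, 24, 49 and 84 in P9 controls. It averaged 83.3 ± 13.1 CPM in P9 Isl1CKO and 7.89 ± 4.92 CPM in P9 control libraries, 10.6-fold apart with no overlap. The SD was 13.1 on a mean of 83.3, so Dmd was steady between Isl1CKO libraries, unlike Cidea. The counts cover the whole gene and do not tell its isoforms apart.

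Evpl was the only one of the 7 whose P9 groups overlapped with TMM scaling. It had between 69 and 325 counts in P9 Isl1CKO libraries (median 244), and 18, 18, 60, 25 and 30 in P9 controls. It averaged 23.9 ± 11.9 CPM in P9 Isl1CKO and 4.28 ± 2.33 CPM in P9 control libraries, 5.58-fold apart. Isl1CKO replicate 5 was at 6.92 CPM and control replicate 3 at 8.26 CPM. In the whole P9 table, every Isl1CKO library was above every control library for 2.81% of the 13964 tested genes, and for 6 of these 7, which the choice of genes largely fixed.

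Levels per kilobase of exon allow a rough comparison between genes. Exon length was the union over all transcripts of a gene, 23801 bases from 14 transcripts for Dmd and 459 bases for Wfdc10. A gene expressed as shorter isoforms is understated on this measure, and the counts do not show isoforms. The P9 Isl1CKO level of Wfdc10 was 46.9 CPM per kb and above 94.6% of 16683 protein-coding genes. Cidea was at 26.4 CPM per kb (above 90.7%) and Dcdc2a at 18.4 (87.1%). Moxd1 was at 10.0 CPM per kb (78.3%), Steap4 at 6.87 (71.5%), Evpl at 3.74 (59.3%) and Dmd at 3.50 (58.1%). In P9 controls the corresponding shares were 51.4% for Dcdc2a, 34.2% for Evpl, 27.6% for Dmd, 16.7% for Moxd1, 6.21% for Steap4 and 1.22% for Cidea. The split between 4 nearly silent genes and the other 3 rests on their counts and is less sharp per kilobase. In P9 controls Dmd was at 0.332 CPM per kb, nearer to Moxd1 (0.116) than to Dcdc2a (2.45). The levels reached in P9 Isl1CKO cells varied from middling to high.

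**Figure D1:**
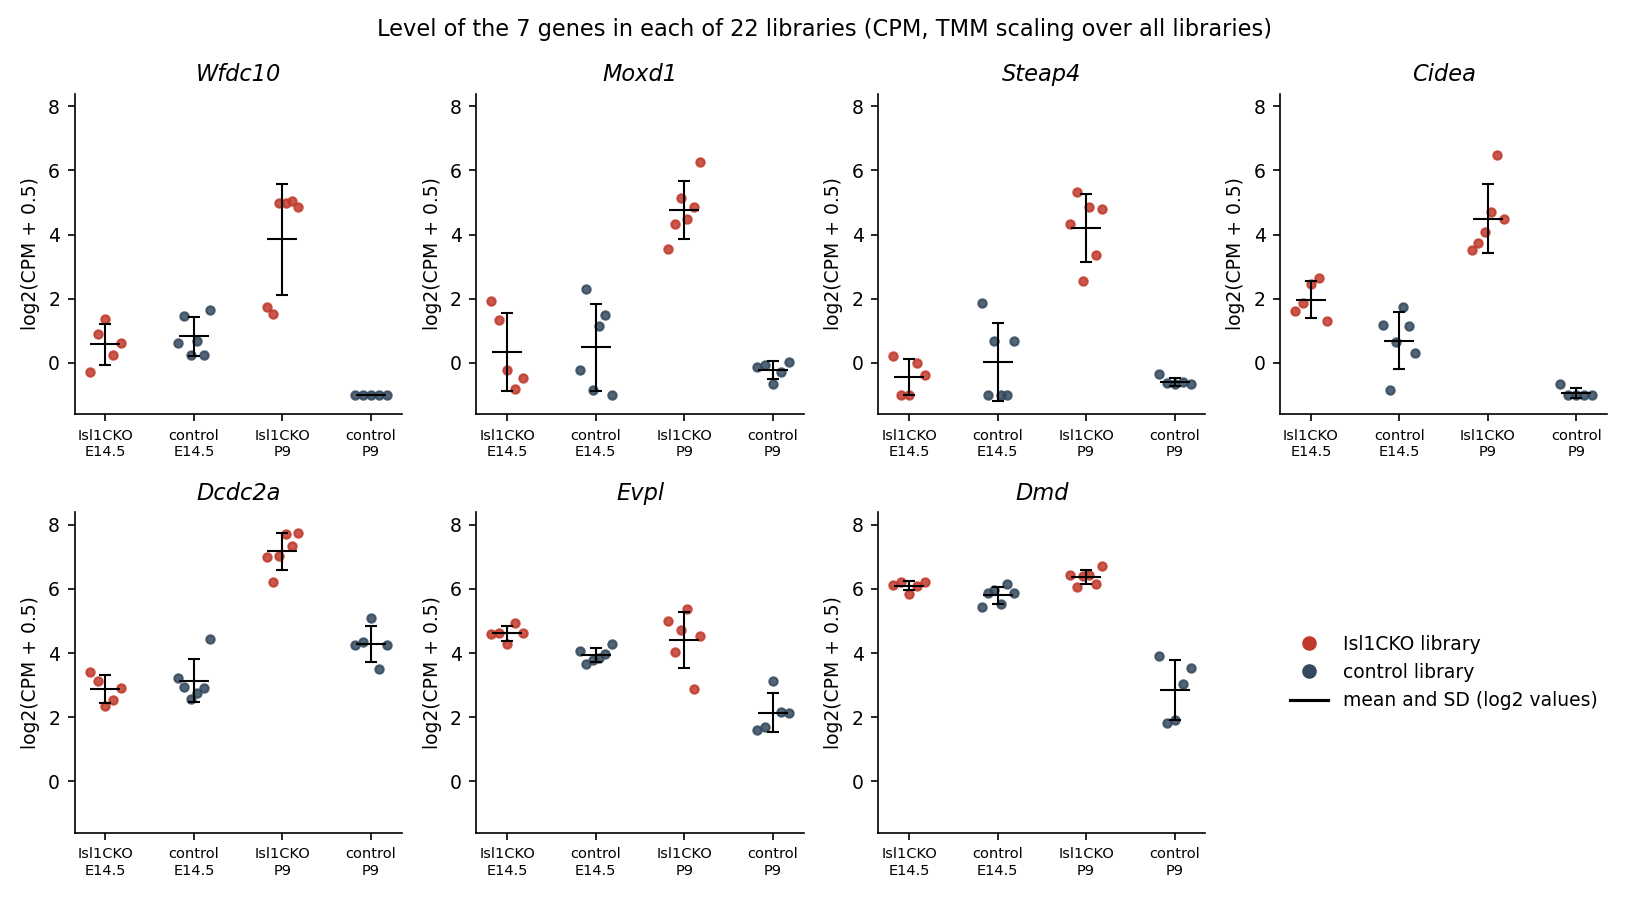
Level of each gene as log2(CPM + 0.5), with CPM scaled over all 22 libraries, in Isl1CKO and control libraries at E14.5 and P9. Points are libraries, black bars the mean and SD of the log2 values. Wfdc10, Moxd1, Steap4 and Cidea peaked in P9 Isl1CKO libraries, whereas for Dmd and Evpl the P9 Isl1CKO libraries overlapped the E14.5 libraries and the P9 controls lay below all E14.5 libraries.

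The E14.5 libraries gave the embryonic level of each gene. Evpl and Dmd had at least 194 and 612 counts in every E14.5 library. Dmd averaged 68.4 ± 6.52 CPM in E14.5 Isl1CKO and 56.2 ± 10.2 CPM in E14.5 control libraries, and Evpl 24.2 ± 3.79 CPM in E14.5 Isl1CKO and 14.97 ± 2.37 CPM in E14.5 control libraries. P9 control levels were 0.141 of the E14.5 control level for Dmd and 0.286 for Evpl (0.062 and 0.128 with scaling by total counts), with no overlap in either case.

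In P9 Isl1CKO cells, Dmd was 1.48-fold and Evpl 1.59-fold the E14.5 control level, and the libraries overlapped for both. With scaling by total counts these ratios were 1.04 and 1.10. Against E14.5 Isl1CKO the ratios were 1.22 for Dmd and 0.986 for Evpl, again with overlap, and with scaling by total counts they were 0.837 and 0.666. The P9 Isl1CKO libraries of both genes thus overlapped the embryonic ones but were not all inside their range. For Dmd with TMM scaling, 4 of the 6 P9 Isl1CKO libraries were above the highest E14.5 library, at 73.5 CPM. With scaling by total counts only replicate 6, at 105.3 CPM, was above the highest E14.5 library, at 99.5 CPM. For Evpl, replicate 5 was below the lowest E14.5 library, at 12.3 CPM, and replicates 1 and 4, at 31.3 and 40.9 CPM, above the highest, at 29.9 CPM. P9 and E14.5 libraries differed in dissociation, with collagenase perfusion used only after birth, and were counted in separate tables, so age and handling cannot be told apart. Fewer cells with a transcript and less transcript per cell also cannot be told apart in pools of cells.

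Wfdc10, Moxd1, Steap4 and Cidea had P9 Isl1CKO means 7.98-fold to 75.6-fold above their own E14.5 means of either genotype, but they were not equally low in the embryo. Per kilobase of exon, the E14.5 control level was 3.07 CPM per kb for Wfdc10 (above 55.6% of genes), against 2.36 for Dmd (51.2%) and 2.35 for Evpl (51.1%). On this measure Wfdc10 was no lower than these in the embryo, though the Dmd value depends on which isoforms were expressed. Cidea was at 3.31 CPM per kb in E14.5 Isl1CKO (56.9%) and 1.23 in E14.5 control (41.5%) libraries, while in E14.5 controls Dcdc2a was at 1.13 (40.4%), Moxd1 at 0.467 (30.8%) and Steap4 at 0.284 (26.2%). Wfdc10 had 5, 22, 36, 11 and 19 counts in E14.5 Isl1CKO libraries and between 11 and 43 counts in E14.5 controls (median 16.5). Every E14.5 control was above the 0 of every P9 control. The P9 Isl1CKO level was 15.3-fold the E14.5 control level, but the lowest Isl1CKO library, replicate 2, lay within the range of the embryonic controls.

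Moxd1 was uneven in the embryo, with 51, 32, 6, 1 and 4 counts in E14.5 Isl1CKO libraries and between 0 and 71 in E14.5 controls (median 16.5). Steap4 had 10, 0, 0, 8 and 5 counts in E14.5 Isl1CKO libraries and between 0 and 45 in E14.5 controls (median 9), 3 of which were at 0. P9 Isl1CKO levels exceeded the E14.5 control levels 21.5-fold for Moxd1 and 24.2-fold for Steap4. Single embryonic controls set much of this, as the values were 35.8-fold for Moxd1 without control replicate 2 and 48.9-fold for Steap4 without control replicate 1. Every P9 Isl1CKO library was above every E14.5 library of either genotype for both genes.

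Cidea had 39, 50, 86, 91 and 36 counts in E14.5 Isl1CKO libraries and between 1 and 46 in E14.5 controls (median 21). Its P9 Isl1CKO level was 21.5-fold the E14.5 control level and 7.98-fold the E14.5 Isl1CKO level. Without P9 Isl1CKO replicate 5 these were 12.8-fold and 4.75-fold. All P9 Isl1CKO libraries were above all E14.5 libraries. In P9 controls Cidea was 0.0204 of the E14.5 control level, from a single count.

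Dcdc2a followed a course of its own among the 7. It had 156, 132, 79, 84 and 131 counts in E14.5 Isl1CKO libraries and between 88 and 349 in E14.5 controls (median 118.5), or 7.11 ± 2.26 and 9.35 ± 5.95 CPM. The P9 Isl1CKO level was 16.3-fold the E14.5 control level and above every embryonic library. P9 controls were 2.17-fold above E14.5 controls with overlapping libraries, a direction that was lost with total-count scaling, where the log2 ratio was -0.036 in place of 1.12.

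Shares of this kind are partly fixed by the choice of genes on P9 counts and are given as a description. E14.5 control levels exceeded P9 control levels more than 2-fold on the log2(CPM + 0.5) scale for 6 of the 7 genes, all but Dcdc2a. The libraries overlapped for Moxd1, Steap4 and Cidea. For Steap4 the E14.5 control mean fell from 0.896 to 0.443 CPM without replicate 1. For Moxd1 it fell from 1.49 to 0.896 CPM without replicate 2. Neither gene then exceeded 2-fold, so their place in the count rested on 1 library each. With all libraries, E14.5 controls exceeded P9 controls more than 2-fold for 131 of the 372 genes called higher in P9 Isl1CKO cells (35.2%). This held for 11.2% of tested genes. These 372 were 2.66% of the genes tested. P9 Isl1CKO levels exceeded E14.5 control levels more than 2-fold for 5 of the 7, for 197 of the 372 (53.0%) and for 16.7% of tested genes. An E14.5 control level below 2.5 CPM, a limit chosen after the values were seen, was found in 4 of the 7, in 57 of the 372 (15.3%) and in 15.8% of tested genes.

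**Figure D2:**
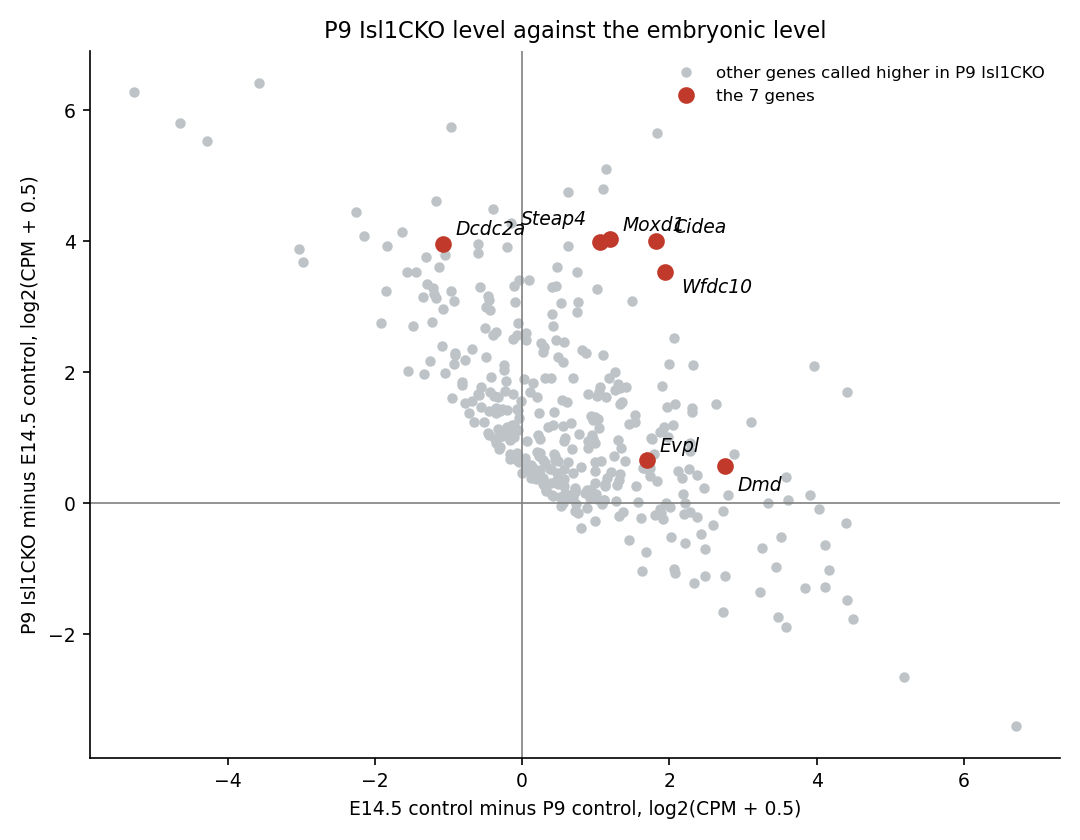
Genes called higher in P9 Isl1CKO cells (grey, with the 7 genes in red), by the difference between E14.5 control and P9 control levels (x axis) and between P9 Isl1CKO and E14.5 control levels (y axis), both as log2(CPM + 0.5) of group means. Evpl and Dmd lie low on the y axis, at 0.66 and 0.57, while the other 5 genes lie between 3.53 and 4.03.

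The knockout effect was tested at E14.5, in libraries whose counts were not the basis of the choice of genes. The choice was made with earlier results of these data known, so these libraries are not fully independent of it. The paper names Evpl among intermediate progenitor genes enriched in P9 Isl1CKO cells. Of the 6 genes that passed the filter on low counts, only Evpl was called, where 0.602% of the 15960 tested genes were called higher, 0.827% lower and 1.43% in either direction. Evpl had 363, 385, 328, 471 and 444 counts in E14.5 Isl1CKO libraries and between 194 and 311 in E14.5 controls (median 227.5). Each Isl1CKO library was above each control in scaled counts, as held for 1.2% of tested genes.

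Evpl averaged 393 ± 61.0 scaled counts in E14.5 Isl1CKO (SD, n = 5) and 243 ± 37.8 in E14.5 control libraries (SD, n = 6), a log2 fold change of 0.70 with an SE of 0.16 (adjusted p = 0.048, edgeR quasi-likelihood test with Benjamini-Hochberg adjustment). A 2-sided exact permutation test gave p = 0.00433, the smallest possible with 5 against 6 libraries. The call lay close to the threshold. It was kept without control replicate 6 and without Isl1CKO replicate 3 and lost on leaving out any of the other 9 libraries, with an adjusted p of up to 0.14 without Isl1CKO replicate 4.

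No other gene of the set passed the threshold at E14.5. Cidea averaged 59.9 ± 26.6 scaled counts in E14.5 Isl1CKO and 22.1 ± 15.7 in E14.5 control libraries (log2 fold change 1.43, SE 0.61, adjusted p = 0.38, edgeR, exact permutation p = 0.0216). Dmd averaged 1109 ± 103 scaled counts in E14.5 Isl1CKO and 910 ± 168 in E14.5 control libraries (log2 fold change 0.28, SE 0.13, adjusted p = 0.42, edgeR, exact permutation p = 0.0606). The exact values are not adjusted for the 7 genes.

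Wfdc10 (log2 fold change -0.34, adjusted p = 0.89), Moxd1 (-0.33, 0.95) and Dcdc2a (-0.39, 0.76) had estimates below 0 at E14.5 that did not pass. The Dcdc2a estimate turned to 0.031 without control replicate 6, which had 349 counts where the other controls had at most 125. Steap4 had too few counts for the fit, and its exact permutation p was 0.37. At P9 the fitted log2 fold changes were 10.49 for Wfdc10, 9.40 for Cidea, 6.86 for Steap4, 6.37 for Moxd1, 3.39 for Dmd, 2.90 for Dcdc2a and 2.47 for Evpl. That for Wfdc10 depends on the prior count of the fit, as its control counts were 0.

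**Figure D3:**
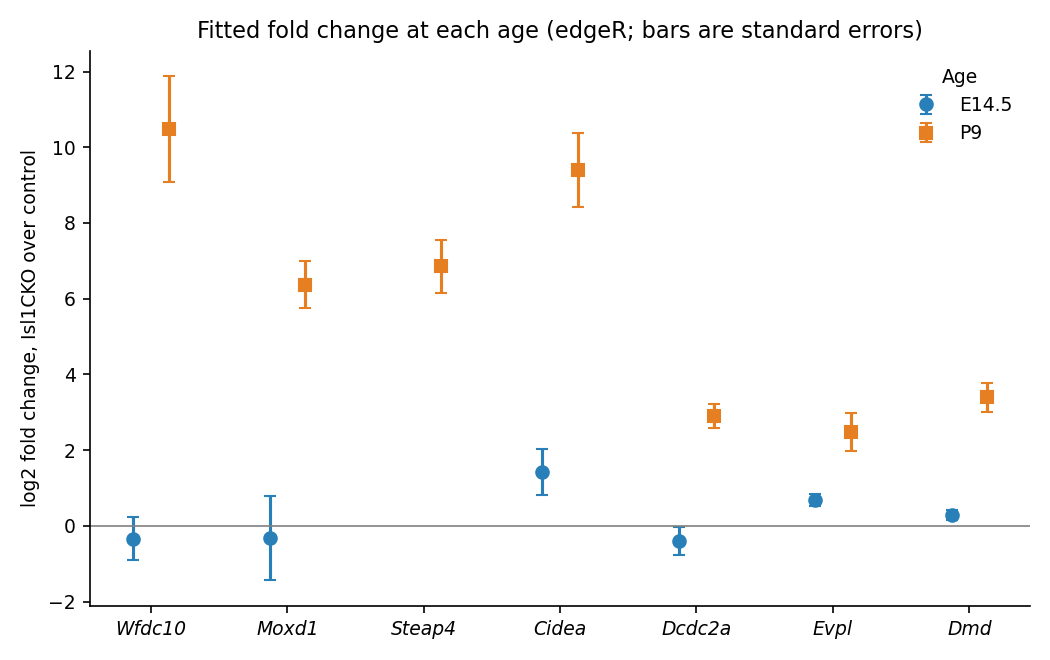
Fitted log2 fold change of Isl1CKO over control (y axis) for each gene at E14.5 (circles) and P9 (squares), with standard errors. P9 values run from 2.47 to 10.49, while the E14.5 values run from -0.39 to 1.43. Steap4 has no E14.5 point because it failed the low-count filter.

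The P9 Isl1CKO libraries did not raise all 7 genes in step. Dmd varied least, and its 6 libraries lay between 66.8 and 103.7 CPM. Wfdc10 and Evpl each had libraries far below the group mean, but not the same ones. Across all 22 libraries the closest pairs were Wfdc10 with Cidea (r = 0.85), Steap4 with Dcdc2a (r = 0.85), Wfdc10 with Moxd1 (r = 0.82) and Evpl with Dmd (r = 0.81), while Dcdc2a with Evpl (r = 0.14) and with Dmd (r = 0.15) were the most distant. These coefficients mix 2 ages and 2 genotypes in libraries that share depth and scaling, and are descriptions only.

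**Figure D4:**
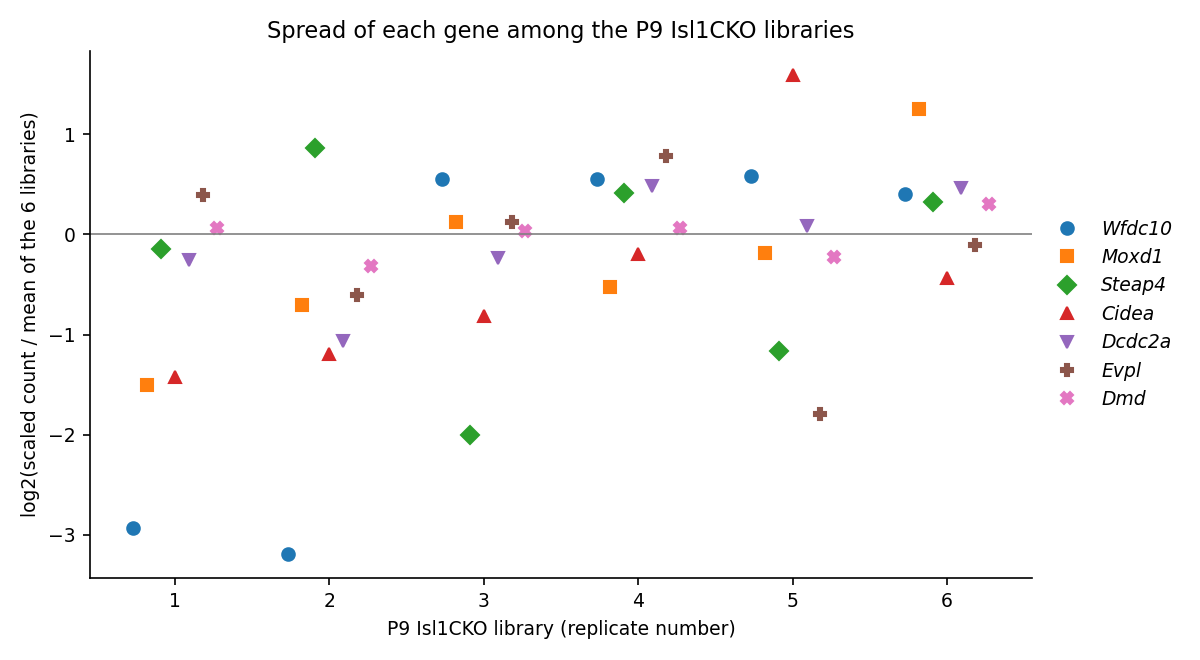
Scaled counts of each gene in the 6 P9 Isl1CKO libraries (x axis, replicate number) as log2 of the value over the gene's mean in these libraries (y axis). Wfdc10 is far below its mean in replicates 1 and 2, Steap4 in replicate 3, Evpl in replicate 5, and Cidea lies highest in replicate 5.

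Over 13936 genes, those most like each member in log2(CPM + 0.5) across the 22 libraries are named here as a description, since the likeness rests in part on the P9 contrast that chose the 7. For Wfdc10 they were the ribosomal protein genes Rpl7a (r = 0.90) and Rpl9 (r = 0.89), for Dcdc2a Rpl35 (r = 0.94) and Lyrm4 (r = 0.93), and for Dmd Rps26 (r = 0.93) and Samd14 (r = 0.93). For Cidea they were Wdsub1 (r = 0.93) and the elongation factor gene Eef1a1 (r = 0.91). Steap4 was closest to Bmp2, a growth factor gene (r = 0.89), and Polr2g (r = 0.89). Moxd1 was closest to Dkk3, a secreted Dickkopf family member (r = 0.89), and the lincRNA Gm36169 (r = 0.88). Evpl was closest to the lincRNA Lhx1os (r = 0.87) and Proser2 (r = 0.86). A high r does not mean a change of like size. Rpl7a averaged 236 CPM in P9 Isl1CKO and 157 in P9 control libraries, against 21.5 and 0 for Wfdc10. Dkk3, by contrast, averaged 46.0 and 1.91 CPM in these groups.

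The families of the 7 genes were looked at next at P9, where 4.81% of tested genes were called, 2.66% higher and 2.14% lower, and the median log2 fold change of all tested genes was 0.02. Over all 7 lists, 6 of the 51 tested genes were called (11.8%), 4 higher and 2 lower. Of 23 other genes of the WAP family and its cluster, only 2 could be tested and neither was called, with a median of 2.67. Wfdc16, the nearest gene before Wfdc10 in the P9 table, had 584, 270, 354, 413, 384 and 434 counts in P9 Isl1CKO libraries and 1, 20, 13, 0 and 148 in P9 controls. All Isl1CKO libraries were above all controls, but the gene narrowly missed the threshold (log2 fold change 3.14, SE 0.89, adjusted p = 0.056, edgeR). It lies 17250 bases away on the opposite strand.

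In the copper monooxygenase and catecholamine list of 6 genes, 3 were tested, with Pam called higher and Th called lower. Pam, which amidates peptide hormones and is a relative of Moxd1, averaged 4756 ± 773 scaled counts in P9 Isl1CKO and 2108 ± 285 in P9 control libraries (log2 fold change 1.17, adjusted p = 2.2e-04, edgeR). Th, tyrosine hydroxylase, averaged 92.8 ± 34.7 in P9 Isl1CKO and 471 ± 107 in P9 control libraries (log2 fold change -2.34, adjusted p = 3.2e-04, edgeR). Both calls held on leaving out each library in turn. The list thus moved in both directions.

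In the STEAP and iron list of 16 genes, 9 were tested, with Steap2 higher and Tfrc lower. Steap2, another metalloreductase, averaged 817 ± 277 scaled counts in P9 Isl1CKO and 334 ± 74.9 in P9 control libraries (log2 fold change 1.29, adjusted p = 0.013, edgeR), with 1 Isl1CKO library at 315 inside the control range. Tfrc, the transferrin receptor, averaged 235 ± 83.8 in P9 Isl1CKO and 563 ± 180 in P9 control libraries (log2 fold change -1.26, adjusted p = 0.027, edgeR). The Tfrc call was lost without control replicate 1, 2 or 3 and without Isl1CKO replicate 2 or 4, with adjusted p up to 0.081, and with total-count scaling (log2 fold change -0.59). Steap1 was not called (119 ± 57.1 scaled counts in P9 Isl1CKO and 33.6 ± 37.9 in P9 control libraries, adjusted p = 0.25, edgeR).

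Of 18 other CIDE and lipid droplet genes 9 were tested, and of 16 plakin and desmosome genes 12, with none called in either list. The median log2 fold changes were -0.25 and 0.19. In the doublecortin list of 9 genes, 4 were tested and Dcdc5 was called, with a median of 1.40 for the list. Dcdc5 averaged 197 ± 121 scaled counts in P9 Isl1CKO and 44.6 ± 16.3 in P9 control libraries, with no overlap (log2 fold change 2.14, adjusted p = 0.016, edgeR).

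Of 19 other genes of the dystrophin complex, 12 were tested and only Dtna, which encodes alpha-dystrobrevin, was called, with a list median of -0.30. Dtna had 33, 95, 11, 32, 547 and 179 counts in P9 Isl1CKO libraries and 7, 11, 13, 8 and 3 in P9 controls. The groups overlapped, and the call (log2 fold change 3.59, SE 0.91, adjusted p = 0.034, edgeR) was lost on leaving out any of the 5 controls or Isl1CKO replicate 5 or 6, with adjusted p up to 0.079. Without Isl1CKO replicate 5 the log2 fold change was 2.496. Utrn, the dystrophin homologue, averaged 640 ± 164 scaled counts in P9 Isl1CKO and 857 ± 365 in P9 control libraries and was not called (log2 fold change -0.42, adjusted p = 0.48, edgeR).

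At E14.5 the same lists held 1 called gene, Pkp4, a plakophilin, which was lower in Isl1CKO (log2 fold change -0.95, adjusted p = 0.024, edgeR). It was lost without Isl1CKO replicate 3, 4 or 5, with adjusted p up to 0.078. Genes flanking the 7 were also looked at. Of those tested at P9 only Sri, 63865 bases after Steap4, was called (log2 fold change 0.72, adjusted p = 0.029, edgeR). This was lost without control replicate 1, 2, 3 or 4 or Isl1CKO replicate 1, 2 or 4, with adjusted p up to 0.083. Tab3, after Dmd (1.47, adjusted p = 0.074, edgeR), and Ccn2, after Moxd1 (-1.94, 0.41), were not called. Some had too few counts to be tested, among them Impa2, before Cidea (28.0 scaled counts in P9 Isl1CKO and 1.37 in P9 control libraries). At E14.5 only Tubb6, 22932 bases after Cidea, was called (log2 fold change 1.95, adjusted p = 0.032, edgeR), lost without control replicate 2, 3 or 6 or Isl1CKO replicate 1, 3, 4 or 5, with adjusted p up to 0.11. Wfdc9, which overlaps Wfdc10 on the other strand, and B430212C06Rik, which overlaps Cidea, share 0 exonic bases with them.

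Other cell types for which these genes are known were looked at through their markers. For fat, Adipoq was at 1.62 scaled counts in P9 Isl1CKO and 1.90 in P9 control libraries, Plin1 at 2.88 and 3.16, and Ucp1 at 1.71 and 0.698. The summed fat list was at 688 to 1200 CPM in P9 Isl1CKO and 275 to 586 CPM in P9 control libraries, carried by Lpl, a lipase also made elsewhere (10222 ± 2102 scaled counts in P9 Isl1CKO and 4586 ± 1290 in P9 control libraries). Muscle markers summed to 9.56 to 23.1 CPM in P9 Isl1CKO and 9.90 to 33.6 CPM in P9 control libraries, with Ckm at 0.971 and 1.24 scaled counts in these groups. Stratified epithelium markers summed to 33.6 to 66.6 CPM in P9 Isl1CKO and 33.8 to 63.7 CPM in P9 control libraries, with Krt5 at 1.51 and 0.914 scaled counts. Not all members of these lists were near 0, as Krt10 was at 523 scaled counts in P9 Isl1CKO and 551 in P9 control libraries, Krt1 at 65.9 and 31.4, and Mylpf, a muscle myosin light chain, at 126 and 131. None of the 3 was called. The part of such cells in the 7 genes' levels was not tested.

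Duct markers summed to 283 to 734 CPM in P9 Isl1CKO and 212 to 279 CPM in P9 control libraries, with 1 of 6 tested called, and endothelial markers to 8.49 to 24.2 CPM in P9 Isl1CKO and 1.36 to 6.16 CPM in P9 control libraries, with 0 of 1 tested called. The endothelial sum was carried by Esam (124 scaled counts in P9 Isl1CKO and 27.8 in P9 control libraries, adjusted p = 0.081, edgeR), and the duct sum by Krt7, Spp1 and Ambp, of which Ambp was called, while Krt19 was at 36.9 in P9 Isl1CKO and 70.2 in P9 control libraries. Their part in the 7 genes' levels was not tested. Acinar markers summed to 18.1 to 115 CPM in P9 Isl1CKO and 24.2 to 685 CPM in P9 control libraries, macrophage markers to 5.58 to 41.2 and 18.4 to 60.3 CPM, and fibroblast markers to 3.25 to 23.7 and 7.41 to 65.1 CPM. These lists were not higher in P9 Isl1CKO libraries.

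The genes lie on 7 chromosomes (GRCm38, GENCODE M21): Wfdc10 at chr2:164656046-164657368, Moxd1 at chr10:24223517-24302790, Steap4 at chr5:7960457-7982213, Cidea at chr18:67343604-67367785, Dcdc2a at chr13:25056004-25210706, Evpl at chr11:116220559-116238077 and Dmd at chrX:82948870-85206141. All are protein-coding, and all but Evpl are on the plus strand.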

How the data were processed

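The authors sorted 100 tdTomato+ cells per library, prepared libraries with a low-input kit, removed adapters (cutadapt 1.18) and rRNA reads (Bowtie 1.2.2), aligned with STAR 2.7.0c to GRCm38 and deposited gene counts from Rsubread, unnormalized, without multimapping reads and without genes under 10 counts. Ensembl IDs were named with GENCODE M21 (27078 of 27124 at E14.5, 27456 of 27504 at P9). The deposited counts were tested within each age with edgeR 4.0.16 (quasi-likelihood, filterByExpr, TMM, adjusted p below 0.05, groups of that age only), in R 4.3.3. Scaled counts are counts at the mean effective library size of the age. CPM for levels across ages were scaled by TMM over all 22 libraries, with a pseudocount of 0.5 on the log2 scale. DESeq2 1.42.0, other scalings, no filter, a replicate block and leaving out each library were alternatives. Leaving out each library for the ratios between ages was chosen after seeing the data. Exact permutation tests used scipy 1.17.1. No 2 libraries of a group agreed within counting noise. The tests were checked on simulated counts.

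The 7 genes and the gene lists were chosen with earlier results of these data known. Named genes were the 7, up to 4 called genes per list with the smallest p, the 2 genes most correlated with each of the 7, the nearest flanking genes and Isl1. Steap1, Utrn, Esam and the other cell type markers shown were picked after their values were seen.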

Additional observations from a re-analysis of the deposited data

Results flagged for a closer look

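Of 27 groups of 5 or 6 libraries examined, 7 had a library that stood far from the rest by Dixon's criterion. Chance gives about 1 in 20 only for normally distributed values. Several of these groups held counts near 0, so the 7 cannot be set against that rate. In P9 Isl1CKO, Moxd1 was at 632.6 scaled counts in replicate 6 against at most 290.1 in the others, and Cidea at 739.1 in replicate 5 against at most 213.2. In P9 control, Evpl was at 69.7 in replicate 3 against at most 33.3, Steap4 at 2.33 in replicate 1 (2 counts where the others had 1), and Cidea at 1.16 in replicate 1 (1 count where the others had 0). In E14.5 control, Steap4 was at 51.0 in replicate 1 against at most 18.1, and Dcdc2a at 344.3 in replicate 6 against at most 141.6. The last is the library without which the Dcdc2a estimate at E14.5 changed sign.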

How the results depend on the processing

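All 7 genes kept a higher fitted level in P9 Isl1CKO cells under every alternative run. The Cidea log2 fold change was 10.96 without control replicate 1, the only control with a Cidea count, and 8.65 without Isl1CKO replicate 5. At E14.5 the count of called genes among the 7, 1, became 0 with total counts without 8 hormone genes (Evpl adjusted p = 0.052), without the low-count filter (0.076) and with a replicate block (0.10), and was 0 to 1 when each library was left out. With DESeq2 the Evpl adjusted p was 6.3e-04. The Dcdc2a estimate at E14.5, -0.39, ran from -0.56 to 0.031 (without control replicate 6) when each library was left out, and its P9 control over E14.5 control log2 ratio -0.036 with total counts.

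E14.5 genes called numbered 228, and 662 with DESeq2, 134 with the replicate block and 114 to 229 leaving out each library. P9 genes called numbered 671, and 1695 with DESeq2, 3962 with total counts (3811 higher, 151 lower, against 372 and 299), 333 with the block and 467 to 682 leaving out each library. Total counts without the hormone genes gave 742 (285 higher, 457 lower). The median log2 fold change of all P9 genes was 0.68 with total counts. List genes called at P9 numbered 6, and 11 with DESeq2, 15 with total counts, 2 with the block and 4 to 7 leaving out each library. At E14.5 they numbered 1, and 4 with DESeq2 and 0 to 1 leaving out each library. What caused the differences was not tested. Same-numbered libraries did not deviate together (correlations -0.051 to 0.054, own number closest for 2 of 5 at each age), so the numbers do not pair them.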

Other observations

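The 4 genes nearly absent from P9 controls were not alone. Limits were at most 15 counts summed over P9 controls, at least 50 mean scaled counts in P9 Isl1CKO libraries and no overlap. They were set after the values were seen. Of the 27504 genes at P9, 15 met them, 10 of them protein-coding. Beside Wfdc10, Moxd1, Steap4 and Cidea these were Vstm2a (366 scaled counts in P9 Isl1CKO and 2.10 in P9 control libraries), Rarres1 (364 and 0.735), Wif1, an inhibitor of Wnt ligands (337 and 0.983), Zfp804a (142 and 3.30), Coch, a cochlear extracellular matrix protein (71.5 and 0.450), and Galnt6 (66.9 and 1.60). Of the 10, 7 were under 2.5 CPM in E14.5 controls, but 4 of these were Wfdc10, Moxd1, Steap4 and Cidea themselves. The limit was chosen after their values were seen, and 15.8% of genes tested at P9 were under it. Among the rest, Vstm2a (1.11 CPM), Rarres1 (0.791) and Zfp804a (1.32) were under it. Wif1 (9.15 CPM), Coch (7.83) and Galnt6 (4.57) were not.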
